A study of Mus musculus with 8 samples.

Results

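Kcnj3, Ppp4r4, Slc27a2, Arhgap45 and Pim2 are the 5 genes described here, of 32334 genes listed in the RNA-seq tables and 12717 genes tested. They were chosen from these same libraries because their transcripts were lower in Mll3/4 dCD cells than in WT cells at both differentiation stages. When the 127 genes that had a symbol, a mean value of at least 5 at each stage, an adjusted p under 0.05 over both stages and every dCD library below every WT library at both stages were ordered by their log2 fold change over both stages, these genes held ranks 1 to 5. Their falls are therefore given as a description, with standard errors and no test, and tests are kept for genes that the choice did not use.

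Bulk RNA had been sequenced from mouse R1 embryonic stem cell derivatives, in 4 groups of 2 libraries that cross genotype and stage. WT cells are the parental R1 line (male), and dCD cells are a clonal R1 derivative in which MLL3 and MLL4, the histone methyltransferases KMT2C and KMT2D, are catalytically dead, so genotype and clone cannot be told apart. All cells were maintained on gelatin with serum and LIF, adapted to 2i medium with LIF (0.4 µM PD0325901 and 3 µM CHIR99021), and then moved to fibronectin in N2B27 medium that held activin A at 20 ng/ml and bFGF at 12 ng/ml. Epiblast-like cells (EpiLC), the germline competent state, were taken after 2 days with knockout serum replacement also in the medium, and epiblast stem cells (EpiSC), a later primed state, after at least 8 days. No label states that replicates came from separate cultures, so their spread may be technical. In bulk samples fewer cells that express a gene and less RNA per cell cannot be told apart.

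MLL3 and MLL4 are the enzymes that place most of the H3K4 monomethylation found at enhancers, the distal elements that raise transcription of a gene when they are bound by transcription factors. A catalytically dead enzyme can still be recruited to chromatin but no longer adds the mark. The 5 genes come from unrelated families. Kcnj3 encodes GIRK1 (Kir3.1), a subunit of potassium channels that open when G protein-coupled receptors are activated, best known in cardiac atrium and neurons. Ppp4r4 encodes a regulatory subunit of protein phosphatase 4, a serine/threonine phosphatase. Slc27a2 encodes FATP2, an acyl-CoA synthetase that activates very long chain fatty acids and is abundant in liver and kidney. Arhgap45, known in human as HMHA1, encodes a GTPase activating protein and is known mostly from blood cells. Pim2 encodes a serine/threonine kinase that promotes survival and translation and is induced by cytokine and JAK-STAT signalling in blood cells.

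The genes lie on 4 chromosomes, and all are protein coding and on the plus strand. In GRCm38 (mm10) coordinates Kcnj3 spans chr2:55435970-55598145, Slc27a2 chr2:126552407-126588243, Arhgap45 chr10:80016653-80031472, Ppp4r4 chr12:103532283-103613831 and Pim2 chrX:7878262-7883432. Promoter windows from RefSeq (GRCm38.p6), 250 bases before and 50 bases after an annotated start, were found for 5 of 5 genes. They are shown because the promoters of genes that fell together are where a common element could be looked for. For each gene the window nearest the start of its GENCODE model is printed 5′ to 3′, and capitals mark the motifs searched on both strands, which were TATAAA (the TATA box), CCAAT (the CCAAT box), GGGCGG (the GC box), CACGTG (an E-box), TTCNNNGAA (the STAT motif), TAATCC (a motif of homeodomain factors such as OTX2) and ATGCAAAT (the octamer).
Kcnj3, chr2:55435720-55436019, plus strand: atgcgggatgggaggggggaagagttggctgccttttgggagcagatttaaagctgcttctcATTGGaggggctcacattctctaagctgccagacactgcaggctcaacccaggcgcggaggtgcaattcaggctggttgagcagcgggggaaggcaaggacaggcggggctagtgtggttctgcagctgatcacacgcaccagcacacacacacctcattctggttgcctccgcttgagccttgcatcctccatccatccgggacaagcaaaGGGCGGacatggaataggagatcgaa
Ppp4r4, chr12:103532315-103532614, plus strand: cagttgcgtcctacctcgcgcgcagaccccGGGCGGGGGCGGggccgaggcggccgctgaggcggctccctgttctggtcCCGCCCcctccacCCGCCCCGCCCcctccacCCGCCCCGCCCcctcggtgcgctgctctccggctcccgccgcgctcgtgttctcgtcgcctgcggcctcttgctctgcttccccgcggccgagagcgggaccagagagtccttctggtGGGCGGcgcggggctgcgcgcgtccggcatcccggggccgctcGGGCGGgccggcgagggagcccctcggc
Slc27a2, chr2:126552774-126553073, plus strand: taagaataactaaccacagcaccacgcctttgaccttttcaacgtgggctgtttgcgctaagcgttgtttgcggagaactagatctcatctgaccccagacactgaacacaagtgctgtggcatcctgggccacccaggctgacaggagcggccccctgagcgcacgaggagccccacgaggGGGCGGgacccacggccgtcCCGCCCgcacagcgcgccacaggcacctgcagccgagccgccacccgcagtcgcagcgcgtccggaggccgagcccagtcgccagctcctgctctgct
Arhgap45, chr10:80016422-80016721, plus strand: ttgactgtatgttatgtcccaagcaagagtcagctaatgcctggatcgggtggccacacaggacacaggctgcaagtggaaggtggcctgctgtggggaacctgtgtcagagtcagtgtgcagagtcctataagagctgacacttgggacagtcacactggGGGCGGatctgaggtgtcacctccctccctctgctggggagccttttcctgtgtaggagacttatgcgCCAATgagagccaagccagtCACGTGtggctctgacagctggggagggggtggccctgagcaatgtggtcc
Pim2, chrX:7878056-7878355, plus strand: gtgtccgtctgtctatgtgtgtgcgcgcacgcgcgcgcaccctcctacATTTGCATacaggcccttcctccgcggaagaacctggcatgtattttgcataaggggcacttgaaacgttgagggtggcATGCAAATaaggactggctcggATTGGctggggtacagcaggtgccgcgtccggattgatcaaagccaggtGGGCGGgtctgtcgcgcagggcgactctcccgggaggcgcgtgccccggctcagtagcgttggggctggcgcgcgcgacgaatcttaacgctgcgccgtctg

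The 5 promoters were not of a common base composition. The Ppp4r4 window was 79.7% G and C with 44 CpG dinucleotides, an observed over expected CpG ratio of 0.935. It held 9 copies of GGGCGG, of which some neighbouring copies share a base. Pim2 and Slc27a2 had CpG ratios of 1.065 and 0.793, and these 3 windows lay above the upper quartile of 0.7495 over 32817 windows. Kcnj3 was at 0.408, close to the median of 0.383, and Arhgap45, at 0.165 with 4 CpG dinucleotides, was below the lower quartile of 0.176. Promoters of the CpG-rich and of the CpG-poor kind were thus both present.

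GGGCGG was found in 5 of 5 windows, and in 35.6% of all windows. That share was not matched for G and C content. The 5 windows held from 57.7% to 79.7% G and C, all above the median of 52.7% over all windows. CCAAT was found in 3, those of Kcnj3, Arhgap45 and Pim2, and in 37.4% of all windows. The octamer ATGCAAAT, the sequence read by POU factors such as OCT4, was present in 2 copies in the Pim2 window and in none of the other 4, and 1.74% of all windows held it. The E-box CACGTG was found in the Arhgap45 window alone among the 5, and in 7.15% of all windows. TATAAA, the STAT motif and TAATCC occurred in 0 of the 5 windows printed, and in 13.6%, 8.29% and 7.06% of all windows. The tables hold 7 windows of these genes, and of those not printed, at other starts of Arhgap45, 1 holds the STAT motif and none holds GGGCGG. All windows here include alternative starts. A match is a description of these letters and not a bound site.

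Values are abundances per gene as deposited (headed TPM), and log2 fold changes are differences of log2(value + 1), which understate the change of low genes. Every member had each dCD library below each WT library at both stages, as its choice required. Over all genes tested 7.99% had that order at both stages, 0.747% were called lower at an adjusted p under 0.05 at both stages, and 0.189% had a log2 fold change of -1 or lower at both. Nothing is read from the members' share of 5 in 5, since the choice fixed it. Over both stages together 1.54% were called lower. Genes called lower made up 2.57% of those tested in EpiLC and 6.91% in EpiSC. The median log2 fold change of the 5 members was -1.37 in EpiLC and -2.65 in EpiSC, beside 0.027 and -0.009 over all genes tested.

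**Figure D1:**
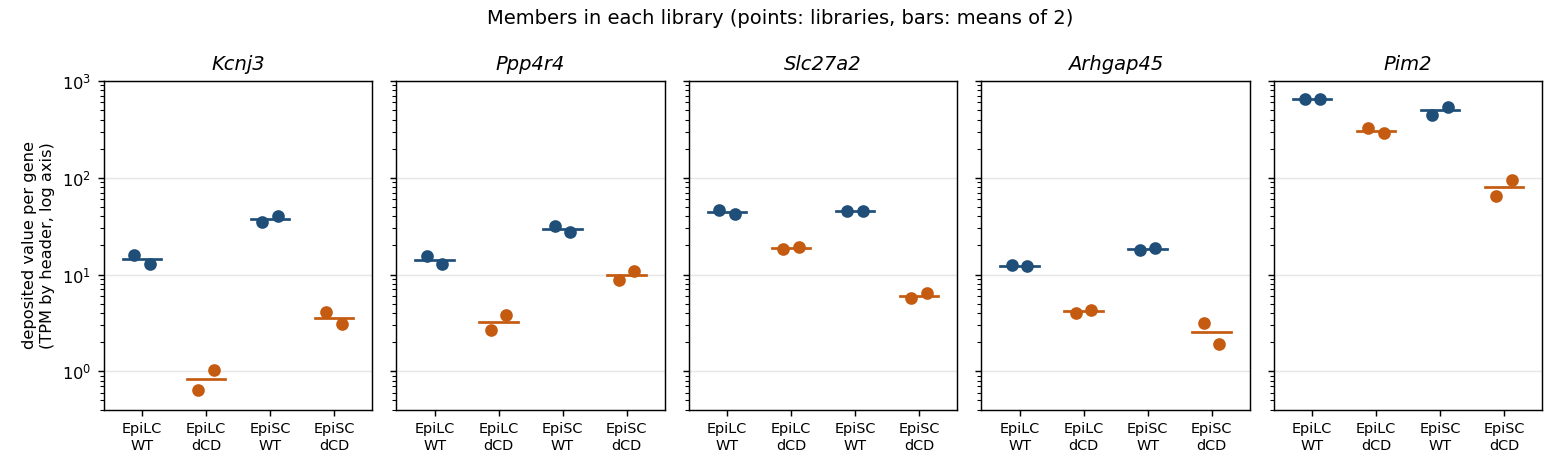
Deposited value per gene (TPM by header, log axis) of the 5 members in the 8 libraries, with 1 point per library and a bar at the mean of the 2 libraries of a group. In every panel the dCD points lie below the WT points of their stage, with the widest gap in Kcnj3 EpiLC, where dCD libraries read 0.639 and 1.018 against 15.91 and 12.82.

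The potassium channel gene Kcnj3 had the deepest fall at each stage. In EpiLC it read 15.91 and 12.82 in WT against 0.639 and 1.018 in dCD, and in EpiSC 35.13 and 40.68 in WT against 4.085 and 3.098 in dCD. The lowest WT library was 12.6 times the highest dCD library in EpiLC and 8.6 times in EpiSC, while replicates of a group differed by at most 1.59 times. The mean fell from 14.4 ± 2.19 to 0.828 ± 0.268 (SD, n = 2) in EpiLC and from 37.9 ± 3.92 to 3.59 ± 0.698 in EpiSC, which left 5.77% and 9.48% of the WT level. On the log2 scale the change was -3.07 ± 0.18 (SE) and -3.09 ± 0.18, the fifth lowest of all 12717 genes at either stage. The EpiLC value rests on dCD levels near 1, where the added constant matters, and it was -3.98 with a constant of 0.1 and -1.73 with a constant of 5. Of the 31-base words of the Kcnj3 transcripts 30.2% also occur in other genes, foremost Gm26794, a lincRNA on the opposite strand that was not analysed here. The library kit keeps strand, and whether the quantification used it is not given in the sources used here.

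Ppp4r4, the phosphatase subunit gene, had WT levels close to those of Kcnj3 and a shallower fall. It read 15.55 and 12.79 in WT EpiLC against 2.684 and 3.825 in dCD, and 31.67 and 27.46 in WT EpiSC against 8.809 and 10.92 in dCD. The WT and dCD libraries did not overlap, and the lowest WT library was 3.35 times the highest dCD library in EpiLC and 2.52 times in EpiSC. Means were 14.2 ± 1.95 and 3.25 ± 0.807 in EpiLC and 29.6 ± 2.98 and 9.86 ± 1.49 in EpiSC (SD, n = 2), so 23.0% and 33.4% of the WT level was left. The log2 fold change was -1.84 ± 0.18 in EpiLC and -1.50 ± 0.18 in EpiSC. None of its 31-base words was found in another gene.

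Slc27a2, the fatty acid activating enzyme gene, fell further in EpiSC than in EpiLC. In WT it read 46.04 and 41.94 in EpiLC and 45.87 and 45.46 in EpiSC, and in dCD 18.44 and 19.14 in EpiLC and 5.719 and 6.363 in EpiSC. Replicates were closest in this gene, differing by at most 1.11 times. The means went from 44.0 ± 2.90 to 18.8 ± 0.498 in EpiLC and from 45.7 ± 0.285 to 6.04 ± 0.455 in EpiSC (SD, n = 2), leaving 42.7% and 13.2%. The log2 fold change was -1.18 ± 0.10 and -2.73 ± 0.10. Gm26697, a lincRNA on the opposite strand that was not analysed here, shares 10.3% of its words.

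Arhgap45, the GTPase activating protein gene, had the lowest WT levels of the 5 in both stages. It read 12.57 and 12.10 in WT EpiLC against 4.042 and 4.265 in dCD, and 17.77 and 18.92 in WT EpiSC against 3.163 and 1.914 in dCD. The dCD libraries of EpiSC differed by 1.65 times, the widest spread between replicates among the members, and the lowest WT library there was still 5.62 times the highest dCD library. Means were 12.3 ± 0.329 and 4.15 ± 0.157 in EpiLC and 18.4 ± 0.809 and 2.54 ± 0.883 in EpiSC (SD, n = 2), so that 33.7% and 13.8% of the WT level was left. The log2 fold change was -1.37 ± 0.18 in EpiLC and -2.47 ± 0.18 in EpiSC.

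Pim2, the kinase gene, was the most abundant member by far, in the 98.4th percentile of tested genes in WT EpiLC. It read 650.9 and 650.5 in WT EpiLC against 325.9 and 289.4 in dCD, and 449.5 and 542.9 in WT EpiSC against 64.63 and 94.21 in dCD. The lowest WT library was 2.00 times the highest dCD library in EpiLC, the narrowest gap of the members, and 4.77 times in EpiSC. Means were 650.7 ± 0.326 and 307.6 ± 25.8 in EpiLC and 496.2 ± 66.0 and 79.4 ± 20.9 in EpiSC (SD, n = 2), leaving 47.3% and 16.0%. The log2 fold change was -1.08 ± 0.19 in EpiLC and -2.65 ± 0.19 in EpiSC. Of its 31-base words 4.52% are shared with the genes Gm7645 and Gm21182.

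**Figure D2:**
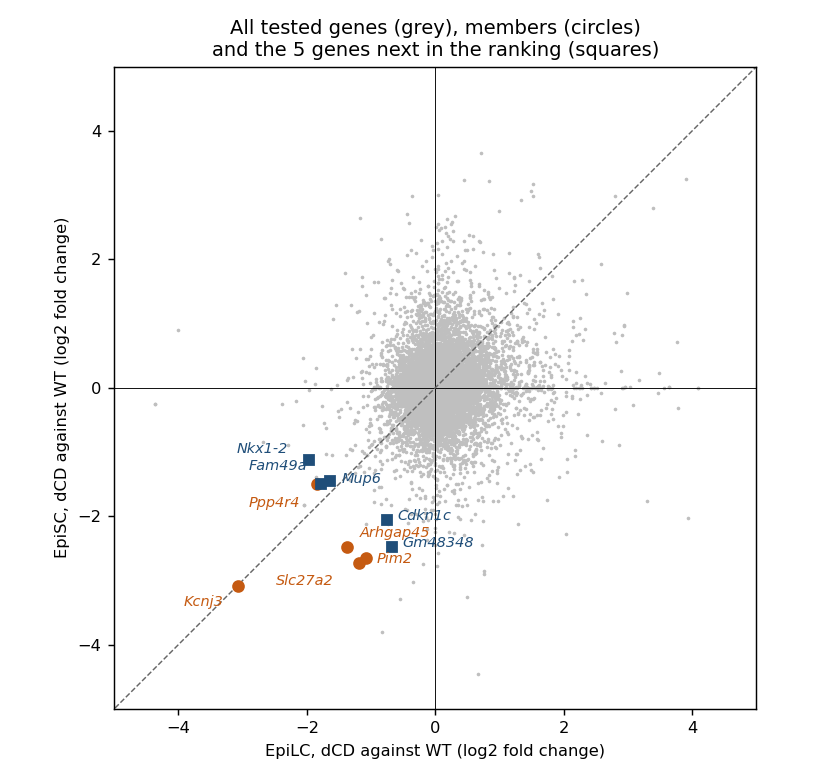
Log2 fold change of dCD against WT in EpiLC (x axis) and EpiSC (y axis) for all tested genes (grey points, of which 2 lie outside the axes), the 5 members (circles) and the next 5 genes of the ranking (squares), with a dashed line where both stages are equal. Kcnj3 lies on the line at -3.07 and -3.09 and Ppp4r4 just above it, while Slc27a2, Arhgap45 and Pim2 lie below it with EpiSC values from -2.73 to -2.47.

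The members differed in how the fall compared between stages. On the log2(value + 1) scale Kcnj3 and Ppp4r4 fell by a similar amount at both stages. Their EpiSC less EpiLC differences of the log2 fold change were -0.02 ± 0.26 and 0.35 ± 0.26 (SE). For Kcnj3 this depends on the added constant. With 0.1 its fall was deeper in EpiLC (-3.98 against -3.37 in EpiSC), and with 5 deeper in EpiSC (-1.73 in EpiLC against -2.32). In Slc27a2, Arhgap45 and Pim2 the fall was deeper in EpiSC, with differences of -1.55 ± 0.14, -1.10 ± 0.25 and -1.57 ± 0.27. These come from the contrasts that chose the genes and were not tested, and 10.4% of all genes passed a test of this difference.

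The tables of the stages were scaled apart, so a level in one cannot be compared with a level in the other, and the values are only set side by side. Those of Kcnj3 and Ppp4r4 in the WT EpiSC columns were 2.64 and 2.09 times those in the WT EpiLC columns, and in the dCD columns 4.34 and 3.03 times. The WT values of Slc27a2, Arhgap45 and Pim2 in EpiSC were 1.04, 1.49 and 0.763 times those in EpiLC, and their dCD values 0.322, 0.611 and 0.258 times.

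**Figure D3:**
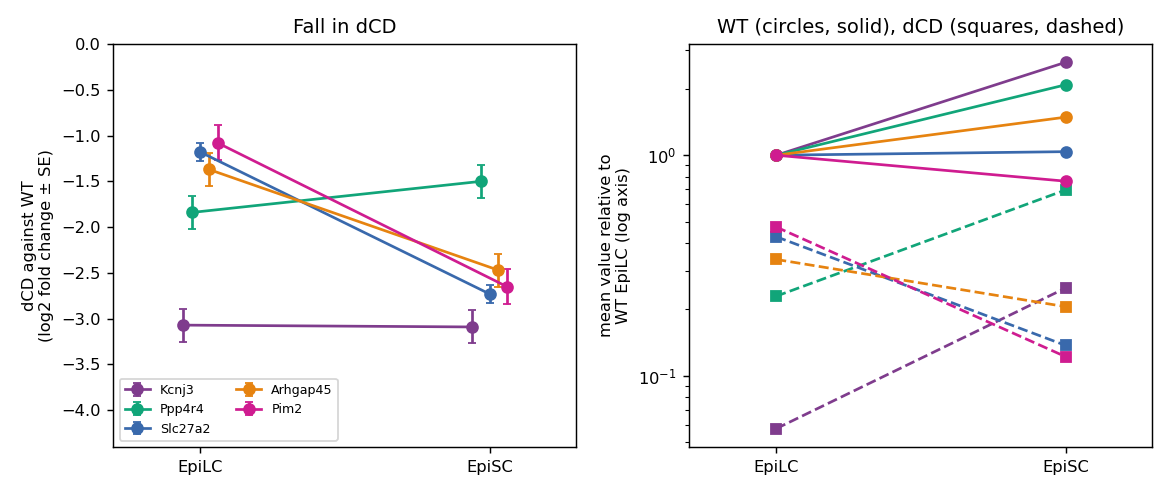
Left, log2 fold change of dCD against WT (± SE) in EpiLC and EpiSC, with lines joining the stages of a gene, and right, group means relative to WT EpiLC on a log axis, with WT as circles on solid lines and dCD as squares on dashed lines. The lines of Slc27a2, Arhgap45 and Pim2 descend from between -1.37 and -1.08 to between -2.73 and -2.47. With the added constant of 1 those of Kcnj3 and Ppp4r4 do not. On the right the stages come from tables scaled apart.

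The study's EpiSC gene set, taken from its single-cell RNA-seq, and its set of genes linked to EpiSC enhancers, taken from that and ChIP-seq, both hold Kcnj3 and Ppp4r4. Neither holds Slc27a2, Arhgap45 or Pim2. Only these sets of the study were compared, and that they hold Kcnj3 and Ppp4r4 was seen before the values were opened. The study's ESC, EpiLC and PGCLC gene sets and its EpiLC and PGCLC enhancer sets were not compared here. Of the 504 tested genes of the EpiSC gene set 28 were called lower and 66 higher in EpiLC, and 39 and 105 in EpiSC (limma, adjusted p under 0.05). Of the 138 tested enhancer-linked genes 16 were called lower and 19 higher in EpiLC, and 18 and 30 in EpiSC. Over all genes tested 2.57% were lower and 7.56% higher in EpiLC, and 6.91% and 7.57% in EpiSC. The share lower was 5.56% of the EpiSC gene set and 11.6% of the enhancer-linked genes in EpiLC, and 7.74% and 13.0% in EpiSC, and the share higher was 13.1% and 13.8% in EpiLC and 20.8% and 21.7% in EpiSC. Genes called lower at both stages numbered 12 of the 504 and 9 of the 138, beside 0.747% of all genes, and all of these counts include Kcnj3 and Ppp4r4 among the genes lower. With calls in both directions, the median log2 fold change of the enhancer-linked genes was -0.02 in EpiLC and 0.11 in EpiSC, beside -1.84 and -3.07 for Ppp4r4 and Kcnj3 in EpiLC and -1.50 and -3.09 in EpiSC.

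The next 5 genes in the ranking were close to the last member, so the border between rank 5 and rank 6 marks no gap. Over both stages Ppp4r4 had a log2 fold change of -1.67 and Fam49a, just outside, -1.64. Gm48348, a processed pseudogene, followed at -1.58, the homeobox gene Nkx1-2 at -1.55, the major urinary protein gene Mup6 at -1.54 and the imprinted cell cycle inhibitor gene Cdkn1c at -1.41. Reads shared with a parent gene or a family member could affect the values of Gm48348 and Mup6, which was not tested. The same pair of patterns was seen here. Fam49a (-1.79 and -1.50), Mup6 (-1.63 and -1.45) and Nkx1-2 (-1.98 and -1.13) did not fall further in EpiSC, while Gm48348 (-0.68 and -2.49) and Cdkn1c (-0.76 and -2.06) did.

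Likeness between genes was measured as the root-mean-square difference over the 8 libraries, on the log2(value + 1) scale less the mean of the stage, among 8254 genes with a mean of at least 5 at each stage. Slc27a2 and Pim2 were each other's nearest gene at 0.147, although their WT levels lie more than 10 times apart. Slc27a2 was also the nearest gene to Arhgap45, at 0.200, and Gm48348 came next after these genes for all 3, at 0.283 to 0.335. The nearest gene to Ppp4r4 was Fam49a at 0.085, followed by Nkx1-2 at 0.212 and Mup6 at 0.243. Fam49a read 12.20 and 10.31 in WT EpiLC against 2.169 and 2.953 in dCD, and 14.71 and 15.77 in WT EpiSC against 4.464 and 5.040 in dCD. Kcnj3 had no close neighbour, its nearest genes being Arhgap45 at 0.647, Slc27a2 at 0.695 and Fam49a at 0.732. The measure uses the libraries that chose the genes, so it describes how they resemble each other and is not a test.

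Genes of the members' families and pathways, with the members left out, were then examined at each stage. Of 65 listed genes 44 were tested. In EpiLC 4 of these rose and 0 fell, and in EpiSC 6 rose and 2 fell (limma, adjusted p under 0.05), where 7.56% of all genes rose and 2.57% fell in EpiLC, and 7.57% rose and 6.91% fell in EpiSC. At an unadjusted p under 0.05 the genes higher numbered 7 in EpiLC and 10 in EpiSC and the genes lower 1 and 3. The median log2 fold change over the 44 genes was 0.04 and 0.02. With each library left out in turn, the calls that held throughout were those of Socs3 and Bcl3 in EpiLC and Kcnj5 in EpiSC, and all other calls of list genes were lost without at least 1 library. Of these, Bcl3 passed the filter on low values only through the dCD EpiLC libraries, where it was high.

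**Figure D4:**
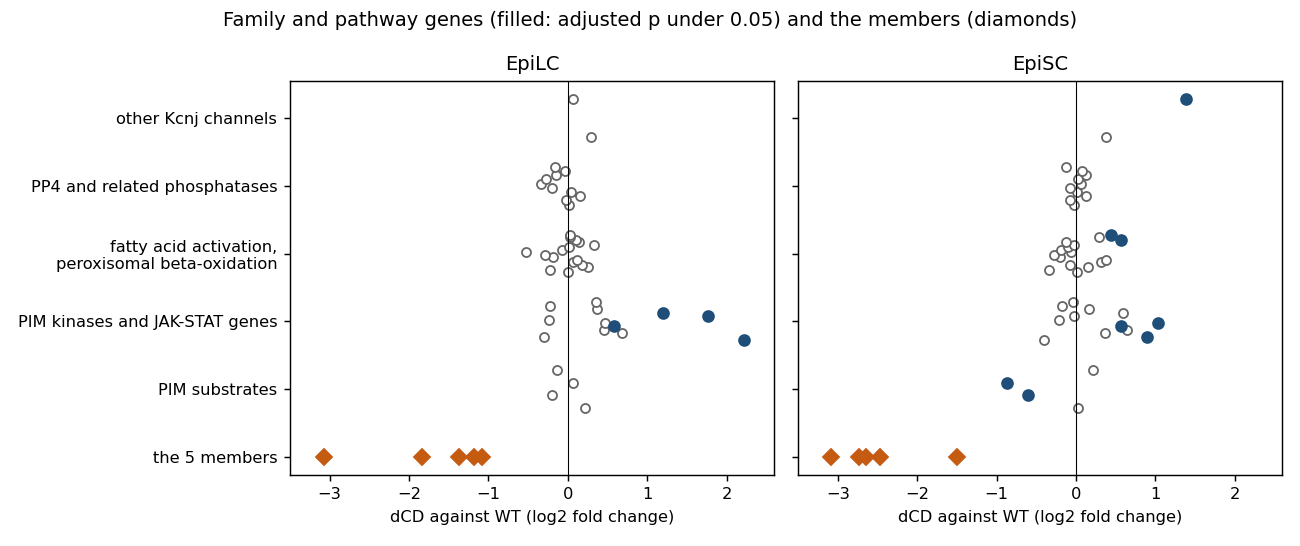
Log2 fold change of dCD against WT for the tested genes of each family or pathway list in EpiLC (left) and EpiSC (right), with filled circles at an adjusted p under 0.05, and the 5 members as diamonds in the bottom row. List genes called lower are Eif4ebp1 and Cdkn1b in EpiSC, at -0.87 and -0.61, and the members lie from -3.09 to -1.08.

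Among the other inwardly rectifying potassium channels only Kcnj5 and Kcnj14 passed the filter on low values, of 12 listed. Kcnj5 encodes GIRK4, the partner of GIRK1 in the atrial channel. It was at most 0.161 in EpiLC and, in EpiSC, read 1.318 and 1.127 in WT against 4.194 and 5.552 in dCD, so it rose where Kcnj3 fell (log2 1.39 ± 0.15, limma adjusted p = 0.00204). Kcnj14 had log2 fold changes of 0.29 and 0.38 and passed at neither stage. Kcnj9, which encodes another GIRK subunit, stayed at or below 0.74 in all libraries. Kcnj6 was not analysed here.

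None of the 10 tested genes of the PP4 and related phosphatase list was called by limma at either stage, and 0 were at an unadjusted p under 0.05. Ppp4c, the catalytic subunit that Ppp4r4 protein binds, read 235.5 and 268.0 in WT EpiLC and 306.1 and 218.3 in dCD, and 224.9 and 219.1 in WT EpiSC and 228.1 and 220.4 in dCD. Its groups overlapped at both stages (log2 0.04 ± 0.16 and 0.01 ± 0.16). The other regulatory subunit genes, Ppp4r1, Ppp4r2, Ppp4r3a and Ppp4r3b, had log2 fold changes from -0.34 to -0.15 in EpiLC and from -0.08 to 0.12 in EpiSC.

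Of 16 tested genes of fatty acid activation and peroxisomal beta-oxidation, 0 were called in EpiLC (limma, with 1 lower and 0 higher at an unadjusted p under 0.05). In EpiSC 2 rose and 0 fell, and these were family members of Slc27a2. Slc27a3 rose from 21.38 and 18.33 to 29.78 and 30.04 (log2 0.57 ± 0.11, adjusted p = 0.0166) and Slc27a6 from 0.548 and 0.638 to 1.10 and 1.218 (log2 0.44 ± 0.11, adjusted p = 0.0382). The Slc27a3 call was lost without 3 of the 8 libraries (adjusted p up to 0.144) and the Slc27a6 call without 6 (up to 0.172). Slc27a6 also passed the filter on low values only through the dCD EpiSC libraries, where it was high. The transporter genes Slc27a1 and Slc27a4 passed at neither stage.

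The JAK-STAT list, upstream of PIM kinases in blood cells, had genes that rose where Pim2 was lower. In EpiLC 4 of 12 tested genes rose and 0 fell, with a median log2 of 0.46, and in EpiSC 3 rose and 0 fell, with a median of 0.26, where 7.56% and 7.57% of all genes rose. At an unadjusted p under 0.05 the genes higher were 7 and 5 and the genes lower 0 at each stage. Socs3, a feedback inhibitor of JAK signalling, read 3.083 and 3.931 in WT EpiLC and 13.45 and 14.96 in dCD (log2 1.76 ± 0.18, adjusted p = 0.00209). Bcl3, a nuclear IκB protein gene, rose from 0.437 and 0.455 to 7.482 and 4.325 (log2 2.22 ± 0.22, adjusted p = 0.00194). It reached the filter on low values only through these dCD EpiLC libraries, so its call is limited by that choice. In EpiSC neither Socs3 nor Bcl3 passed at an adjusted p under 0.05. The transcription factor gene Stat3 rose in EpiLC by log2 1.20 ± 0.17, a call lost without EpiLC WT replicate 2 (adjusted p = 0.0594). Jak2, a kinase of the pathway, rose at both stages by log2 0.58 and 0.57, lost without 7 and 6 libraries (adjusted p up to 0.218 and 0.213). In EpiSC the feedback inhibitor gene Cish rose by log2 0.89 ± 0.13, lost without EpiSC WT replicate 2 (adjusted p = 0.062), and the receptor gene Lifr by 1.03 ± 0.26, lost without 6 libraries (up to 0.255). Pim1 and Pim3, the other genes of the kinase family, were not analysed here.

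Of the 4 tested genes that encode PIM substrates, 0 were called in EpiLC by limma, and 0 were at an unadjusted p under 0.05. In EpiSC 2 fell, Eif4ebp1, which encodes a repressor of translation, and Cdkn1b, which encodes a cell cycle inhibitor. Eif4ebp1 read 311.5 and 353.0 in WT against 196.5 and 167.0 in dCD (log2 -0.87 ± 0.22, adjusted p = 0.0427), and Cdkn1b 25.32 and 29.23 in WT against 17.85 and 17.09 in dCD (log2 -0.61 ± 0.11, adjusted p = 0.0119). The calls were lost without 6 and 3 of the 8 libraries (adjusted p up to 0.253 and 0.117). Bad, a pro-apoptotic gene, and Foxo3 passed at neither stage.

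Coding genes within 250 kb of each member were examined to see whether a fall was shared along the chromosome. Of 82 such genes 56 were tested, and Kcnj3 has 0 within that distance. In EpiLC 0 of 56 fell and 9 rose (limma, with 2 lower and 15 higher at an unadjusted p under 0.05), and in EpiSC 5 fell and 7 rose (10 lower and 10 higher at an unadjusted p under 0.05). Over all genes tested 2.57% fell and 7.56% rose in EpiLC, and 6.91% and 7.57% in EpiSC. Only Fstl3, near Arhgap45, had every dCD library below every WT library at both stages, beside 7.99% of all genes, and its log2 fold changes were -0.13 and -0.23. The median log2 fold change of the 56 genes was 0.08 in EpiLC and -0.04 in EpiSC. With each library left out in turn, 0 of the 9 EpiLC calls and 3 of the 12 EpiSC calls held throughout, those of Otub2, Suv39h1 and Gm26602.

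**Figure D5:**
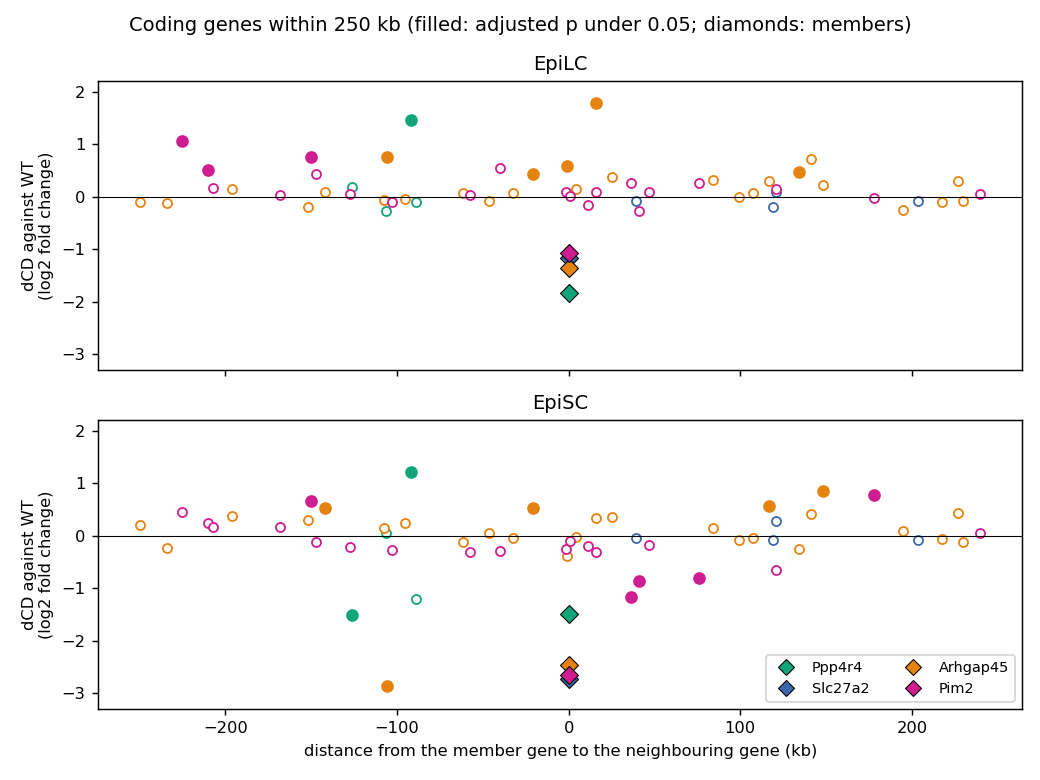
Log2 fold change of dCD against WT for tested coding genes within 250 kb of Ppp4r4, Slc27a2, Arhgap45 or Pim2 (colours), against distance from the member in kb, in EpiLC (top) and EpiSC (bottom), with filled circles at an adjusted p under 0.05, diamonds for the members at 0, and negative distances towards lower coordinates. In EpiLC none of the 56 neighbours is called lower, and in EpiSC 5 are.

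The nearest tested genes on either side of a member were not called lower at either stage. Arhgap45 lies between Abca7, a lipid transporter gene 1.1 kb away, and Polr2e, an RNA polymerase II subunit gene 4.5 kb away. Polr2e read 192.7 and 198.0 in WT EpiSC and 208.7 and 178.4 in dCD (log2 -0.02 ± 0.22). Abca7 rose in EpiLC from 1.295 and 1.298 to 2.195 and 2.765 (log2 0.59 ± 0.14, adjusted p = 0.0408), a call lost without 7 of the 8 libraries (adjusted p up to 0.202), and had a log2 fold change of -0.38 ± 0.14 in EpiSC. Next to Pim2 the deubiquitinase gene Otud5, 1.6 kb away, had log2 fold changes of 0.09 ± 0.10 and -0.25 ± 0.10, and the UDP-galactose transporter gene Slc35a2, 0.6 kb away, 0.01 ± 0.15 and -0.10 ± 0.15. The nearest tested gene to Slc27a2, the transcription factor gene Gabpb1 at 39.2 kb, had -0.09 ± 0.09 and -0.04 ± 0.09, and no gene on its other side was tested within 250 kb. On the side of Ppp4r4 that held tested genes, the nearest was the interferon-inducible gene Ifi27l2a at 88.6 kb (-0.11 ± 0.37 and -1.20 ± 0.37). In EpiSC Ifi27l2a read 11.6 and 10.14 in WT against 4.484 and 3.856 in dCD, without passing (limma, adjusted p = 0.081).

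The neighbours called lower in EpiSC lay around 3 members. Near Ppp4r4 the deubiquitinase gene Otub2, 125.9 kb away, read 16.70 and 18.96 in WT EpiSC and 6.708 and 4.639 in dCD (log2 -1.51 ± 0.17, adjusted p = 0.00279), and 7.47 and 7.593 against 8.058 and 9.424 in EpiLC. Near Pim2 there were Pcsk1n (log2 -1.17 ± 0.28) at 36.4 kb, Eras, a Ras gene of embryonic stem cells (29.45 and 29.19 to 15.93 and 15.18, log2 -0.87 ± 0.20), at 40.8 kb, and Gata1, a transcription factor gene of red blood cells (1.277 and 1.631 to 0.487 and 0.308, log2 -0.81 ± 0.15), at 75.8 kb. Their calls were lost without 6, 4 and 2 of the 8 libraries (adjusted p up to 0.199, 0.162 and 0.119). Gata1 also passed the filter on low values only through the WT EpiSC libraries, where it was high. Near Arhgap45 Gm26602, at 105.5 kb, read 6.302 and 6.195 in WT EpiSC and was listed at 0 and 1.772e-07 in dCD, while in EpiLC it rose from 2.005 and 2.198 to 4.756 and 3.727 (adjusted p = 0.0171), a call lost without 2 libraries (adjusted p up to 0.128). Whether reads shared with other genes affect the values of Gm26602 was not tested.

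Neighbours that rose included the interferon-inducible gene Ifi27 near Ppp4r4 and Wdr45, an autophagy gene near Pim2, at both stages. Ifi27 rose by log2 1.46 and 1.22 and Wdr45 by 0.75 and 0.65, and these calls were lost without 3 and 3 libraries for Ifi27 (adjusted p up to 0.125 and 0.132) and 2 and 4 for Wdr45 (up to 0.09 and 0.0927). Cnn2, which encodes calponin 2 near Arhgap45, rose by 0.43 and 0.52, lost without 7 and 3 libraries (up to 0.205 and 0.124). In EpiLC Gpx4, a glutathione peroxidase gene 15.7 kb from Arhgap45, read 141.3 and 234.3 in WT against 919.0 and 430.3 in dCD (log2 1.78 ± 0.37), lost without 6 libraries (up to 0.171). Syp, Prickle3 and Cirbp also rose in EpiLC, by 1.05, 0.50 and 0.46, lost without 2, 8 and 6 libraries (up to 0.108, 0.226 and 0.189). In EpiSC the histone methyltransferase gene Suv39h1 near Pim2 rose from 38.89 and 36.69 to 64.21 and 67.24 (log2 0.78 ± 0.09, adjusted p = 0.00225). Efna2, Midn and Plppr3, all near Arhgap45, rose in EpiSC by 0.85, 0.57 and 0.53, lost without 4, 4 and 6 libraries (up to 0.0842, 0.14 and 0.194).

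Markers of other cell types were summed in each library. Arhgap45 and Pim2 are known from blood cells, and the summed level of 6 blood markers lay between 0.251 and 1.19 in EpiLC and between 0.585 and 1.99 in EpiSC, with 5 of the 6 below 1 in all libraries and Hbb-bt, a haemoglobin gene, at 0 in all. The blood sum in EpiSC, 1.56 and 1.99 in WT against 0.585 and 0.698 in dCD, moved with the members, and Gata1, the Pim2 neighbour, made up 1.277 and 1.631 of it in WT and 0.487 and 0.308 in dCD. Of 9 markers of EpiLC and EpiSC identity 8 were listed, with sums from 2055 to 2691. Pou5f1 and Dnmt3b made up most of each sum, so it can hide shifts of single genes. In EpiLC T (4.25 and 3.75 in WT against 17.8 and 18.2 in dCD) and Sox2 (29.4 and 26.7 against 47.49 and 45.25) rose. Dnmt3b (853.7 and 721.5 against 430.9 and 609.3) and Fgf5 (85.21 and 78.76 against 63.51 and 58.01) fell there. In EpiSC Otx2 (73.4 and 55.1 against 126.6 and 99.0) and T (241.0 and 196.1 against 292.2 and 319.0) rose. Pou5f1 (1140 and 1223 against 942.3 and 869.5), Pou3f1 (40.29 and 41.62 against 22.62 and 32.27) and Dnmt3b (390.8 and 394.1 against 358.0 and 355.9) fell in EpiSC. The other identity genes listed overlapped between the genotypes at each stage. For the 6 fibroblast markers the EpiLC sums, 73.6 and 70.1 (WT) against 17.6 and 21.0 (dCD), moved with the members. That drop was mostly Col3a1 (44.13 and 40.83 against 1.148 and 2.435), while Col1a2 was higher in dCD (4.168 and 3.89 against 5.206 and 7.689). Their EpiSC sums, 24.3 and 25.5 (WT) against 36.1 and 42.8 (dCD), did not move with the members. Col1a1 (5.782 and 4.757 against 3.14 and 3.443) and Thy1 (3.454 and 4.302 against 2.616 and 2.302) were lower there, as in EpiLC. Col1a2, Col3a1 and Dcn were higher in dCD EpiSC, and Postn overlapped between the genotypes. In EpiLC the 6 naive pluripotency markers had sums of 16.1 and 15.9 in WT against 39.5 and 39.8 in dCD. Each of the 6 was higher in dCD EpiLC, and Zfp42 made up most of the sum (14.0 and 13.98 against 29.32 and 27.41). In EpiSC the naive sums overlapped (6.91 and 6.51 against 6.75 and 11.69). Zfp42 was lower in dCD EpiSC (3.102 and 2.974 against 0.5003 and 0.9562) and Esrrb overlapped. Klf4, Tfcp2l1, Nr5a2 and Tbx3 were higher. The 6 neural markers in EpiLC had sums of 60.3 and 59.0 in WT against 89.4 and 89.1 in dCD. This neural sum was mostly Tubb3 (41.1 and 43.8 against 72.8 and 66.6), and Sox1, Pax6 and Neurod1 were also higher in dCD. Elavl3 of that list was lower in dCD (9.02 and 7.98 against 5.95 and 6.58), and Map2 overlapped between the genotypes. In EpiSC the 4 listed endoderm markers had sums of 181.7 and 127.4 in WT against 309.4 and 275.5 in dCD, and the 4 listed trophoblast markers 71.6 and 43.5 in WT against 200.3 and 177.5 in dCD. The trophoblast sum was nearly all Eomes (66.3 and 39.8 against 195.4 and 167.2), which is also a gene of mesendoderm, while Ascl2 of that list read 3.36 and 2.30 in WT against 0.858 and 1.0 in dCD. The part of these in the members' falls was not tested.

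The deposited values keep no read counts, so the depth of the libraries and the precision it sets are unknown. Column sums ran from 813537 to 1033290, and between 40.6% and 43.4% of genes were at 0. Differences between replicates in WT and in dCD EpiLC had a correlation of -0.583 over the genes tested. WT replicate 2 thus varied with dCD replicate 1, and WT replicate 1 with dCD replicate 2. The correlation does not tell which of these pairs stands apart. WT replicate 2 and dCD replicate 1 had the higher column sums in EpiLC (921194 and 1033290, against 823909 and 813537). Without WT replicate 2 and dCD replicate 1 the members' log2 fold changes in EpiLC were -3.07 for Kcnj3, -1.78 for Ppp4r4, -1.22 for Slc27a2, -1.37 for Arhgap45 and -1.17 for Pim2.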

How the data were processed

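Bulk RNA-seq was analysed from WT and Mll3/4 dCD EpiLC and EpiSC, 8 libraries in 4 groups of 2. The authors prepared stranded TruSeq libraries, ran kallisto and summed transcripts per gene in sleuth against Ensembl release 96 (GRCm38), at versions not given in the sources used here. The authors deposited a signal per gene, headed TPM but with column sums that differ (813537 to 1033290), so the values look scaled by a factor per library, separately for each stage. The design had assumed plain TPM. A further 6 columns match no labelled sample and are not used.

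Identifiers were joined to GENCODE release M21 for 32013 of 32334 genes (99.0%). The filter kept 12717 genes that reached 1 in 2 or more libraries, among them 5 of 5 members. Genes low in one group pass only through the group where they are high. Group means of log2(value + 1) were modelled across the 8 libraries in limma 3.58.1 (R 4.3.3, eBayes with trend), with Benjamini-Hochberg adjusted p within each contrast and calls under 0.05. The scripts were tested on simulated data. For both stages together, stage and genotype were additive terms.

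The members and lists were chosen with earlier results of these data known. Genes named are the members, the next 5 of the ranking, the 3 nearest in profile to each member, at most 4 called genes of each list, a few fixed relatives, and called or nearest genes within 250 kb; Jak2, Lifr and Fstl3 were named after their values were seen. List genes lacking here were not analysed, and some planned list genes are not reported here, nor counted. Alternatives covered the pseudocount, filter, scaling, transcript length, replicate block, stage fitted alone, window and each library left out.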

Additional observations from a re-analysis of the deposited data

Results flagged for a closer look

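The dCD effect differed between the stages (limma interaction, adjusted p under 0.05) for 4 of the 44 tested genes of the members' families and pathways and for 7 of the 56 tested genes near a member, 11 in all, beside 10.4% of all genes tested, so the count is near that share. Values are given as the log2 fold change in EpiSC less that in EpiLC. Among family and pathway genes the difference was -2.62 for Bcl3 and -1.79 for Socs3, which rose in EpiLC alone by their own tests, and 1.33 for Kcnj5 and 1.18 for Cish, which rose in EpiSC. Among genes within 250 kb of a member it was -3.61 for Gm26602, which rose in EpiLC and was listed at or near 0 in dCD EpiSC, -0.97 for Abca7, -0.71 for Cirbp and 0.81 for Suv39h1. It was -1.70 for Otub2, near Ppp4r4, and -1.07 for Gata1 and -0.83 for Kcnd1, near Pim2. Bcl3 passed the filter on low values only through the dCD EpiLC libraries, and Gata1 only through the WT EpiSC libraries. The interaction calls of Bcl3 and Gata1 are therefore limited by that filter. Whether the 11 interaction calls hold with single libraries left out is not given here.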

How the results depend on the processing

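The members' log2 fold changes were below 0 in 210 of 210 values under 21 alternatives and at or below -1 in 209, the exception being Arhgap45 in EpiLC at -0.92 with a pseudocount of 5. This count is no test, since the members were chosen from these libraries for being lower in dCD. Replicate blocks, the stage fitted alone and changes of the filter cannot move these estimates. Leaving out a library of one stage also leaves the values of the other stage unchanged. The members' median moved in EpiLC from -1.37 to -1.55 (pseudocount 0.1), -1.07 (pseudocount 5), -1.46 (quantile normalization) and -1.47 (mitochondrial genes removed and libraries rescaled), and in EpiSC from -2.65 to -2.85 (pseudocount 0.1) and -2.20 (pseudocount 5). With single libraries left out it ran from -1.40 to -1.34 in EpiLC and from -2.80 to -2.51 in EpiSC. The genes lowest by the ranking rule included at least 4 of the 5 members under all alternatives but the replicate block (2) and the block with the length trend removed (3).

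Counts of genes called depended on the setting. Genes lower in EpiLC, 327 as reported, numbered 813 with the length trend removed, 538 with quantile normalization, 185 without mitochondrial genes, 170 with a mean of at least 5, 60 with the stage fitted alone and 184 when EpiLC WT replicate 2 was left out with EpiLC dCD replicate 1. Genes lower in EpiSC, 879 as reported, numbered 556, 507, 1798 and 1808 without mitochondrial genes, with a mean of at least 5, with the stage alone and without that pair of EpiLC libraries, and that pair also raised the genes ordered lower at both stages from 1016 to 2491. Called list genes, 4 in EpiLC and 8 in EpiSC, numbered 8 in EpiLC with the length trend removed, 2 and 13 with the stage alone, 2 and 5 without mitochondrial genes, 2 and 2 at a mean minimum of 5, 5 in EpiSC with no filter or a pseudocount of 0.1, and 13 in EpiSC without the pair. Called genes near a member, 9 and 12, numbered 5 in EpiLC with median-ratio scaling, quantile normalization or mitochondrial genes removed, 4 with a mean of at least 5, 1 and 20 with the stage alone, 2 and 20 without the pair, and 4 and 5 within 100 kb. With single libraries left out, genes lower ran from 52 to 1387 in EpiLC and from 233 to 1540 in EpiSC, genes higher from 306 to 1893 and 274 to 1476, genes ordered lower at both stages from 1161 to 1940, list genes from 2 to 10 and 1 to 12, and genes near a member from 0 to 16 and 3 to 17. Where an arm was left with 1 library it was assumed to vary like the others.

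Libraries of the same replicate number did not vary together. The correlation between the replicate differences of both genotypes was -0.583 in EpiLC and -0.007 in EpiSC. Whether libraries were paired under other numbers cannot be told from the labels. With the replicate block 48 and 247 genes were lower, 2 and 1 list genes and 1 and 3 genes near a member were called. With the block and the length trend removed 142 and 532 genes were lower and 3 genes near a member in EpiLC and 4 list genes in EpiSC were called. With the numbers of EpiLC crossed in the block, chosen after seeing the data, 664 and 1341 genes were lower. The cause of these shifts was not tested. The values keep no counts, the stages cannot be compared in level, each group has 2 libraries, and clone and genotype cannot be told apart.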
